A study of Mus musculus with 90 samples.

Results

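T cell costimulatory receptors are the surface proteins that deliver the signal which, together with the T cell receptor, lets a T cell divide, survive and act. The genes described here are Tnfrsf4 (OX40), Tnfrsf18 (GITR), Tnfrsf9 (4-1BB, CD137), Cd27, Cd28 and Icos, chosen by name, 6 genes of the 18194 measured. Each was read from 1 probe set, chosen among those that name that gene alone by its mean over the 90 arrays, the highest being kept. The arrays measured RNA of whole subcutaneous mouse melanomas from mice treated with anti-PD-L1, which blocks a ligand of the inhibitory T cell receptor PD-1, or with a control.

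All 90 tumours share the genotype label Hgftg;Cdk4R24C/R24C, which stands for a transgene of the growth factor Hgf and the R24C form of the cell cycle kinase Cdk4, and the strain label B6.cBrd. The labels call the model a melanoma allograft. The promoter of the transgene, the number of tumour lines behind the allografts and the age of the hosts are not given in the sources used here. Treated mice received anti-PD-L1 of the mouse IgG1 type with the D265A change at 10 mg/kg. Control mice received mouse IgG1 D265A at 10 mg/kg or PBS at 10 ml/kg, while the series description also names 20 mg/kg for the antibodies. Responders lost at least 5% of their volume and were taken after 2 to 12 doses, and non-responders kept growing under treatment and were taken at matching times. Relapse tumours had first shrunk out of measurable range and grew again after 4 to 10 doses. Stabilization tumours held their volume between 2 measurements. Growth delay tumours were first seen once treatment had begun. Study 2 held 3 PBS and 14 IgG tumours, 14 non-responders, 17 responders, 3 relapse tumours and 2 with growth delay. In study 3 there were 4 PBS and 8 IgG tumours, 9 non-responders, 10 responders, 3 stabilization and 3 relapse tumours.

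Cd28 and Icos belong to the immunoglobulin superfamily. Cd28 is carried by resting T cells, binds Cd80 and Cd86 on antigen-presenting cells and recruits phosphoinositide 3-kinase, while Icos appears after activation and binds Icosl. Tnfrsf4, Tnfrsf9, Tnfrsf18 and Cd27 belong to the TNF receptor superfamily, have no enzyme activity of their own and bind TRAF adaptors that lead to NF-kB. In tumours, Tnfrsf4 and Tnfrsf18 are known from activated and regulatory T cells, Cd27 from naive and memory cells, and Tnfrsf9 from recently stimulated CD8 T cells and NK cells, but also from endothelial and myeloid cells. The programmed death receptor PD-1 acts in part by having phosphate removed from Cd28.

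Of the members 4 have promoter windows in the RefSeq table used here (build GRCm38.p6, 300 bases around an annotated start), and Cd28 and Icos are named only. The windows are shown because Tnfrsf9 behaved unlike the other receptors in the values below. Its windows can be set beside those of Tnfrsf4, Tnfrsf18 and Cd27, which moved together. A link between letters in the windows and the receptor values was not tested. Capitals mark matches, on either strand, to the kappaB consensus, to the AP-1 letters TGANTCA, the NFAT letters GGAAA, the T-box letters TCACACC and the hypoxia response cores ACGTG and GCGTG; the last 2 were added after the values had been seen.
Tnfrsf9, chr4:150919905-150920204, plus strand: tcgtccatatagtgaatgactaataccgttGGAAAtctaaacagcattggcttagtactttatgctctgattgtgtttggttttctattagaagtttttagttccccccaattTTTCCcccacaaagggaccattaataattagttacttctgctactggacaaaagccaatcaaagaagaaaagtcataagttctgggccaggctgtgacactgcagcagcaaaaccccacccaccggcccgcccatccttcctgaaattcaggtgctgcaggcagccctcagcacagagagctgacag
Tnfrsf9, chr4:150927749-150928048, plus strand: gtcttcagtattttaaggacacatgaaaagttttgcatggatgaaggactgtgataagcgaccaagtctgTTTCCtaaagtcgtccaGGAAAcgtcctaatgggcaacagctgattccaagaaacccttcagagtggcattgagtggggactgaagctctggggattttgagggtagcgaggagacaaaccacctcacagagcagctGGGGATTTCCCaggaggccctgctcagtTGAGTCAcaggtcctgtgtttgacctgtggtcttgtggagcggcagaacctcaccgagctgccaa
Tnfrsf4, chr4:156013445-156013744, plus strand: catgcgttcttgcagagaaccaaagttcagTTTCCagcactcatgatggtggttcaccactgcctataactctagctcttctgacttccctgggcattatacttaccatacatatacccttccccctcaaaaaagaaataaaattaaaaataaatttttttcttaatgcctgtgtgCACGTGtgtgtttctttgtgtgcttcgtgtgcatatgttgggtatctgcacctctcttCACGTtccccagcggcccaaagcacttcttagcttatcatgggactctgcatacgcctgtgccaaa
Tnfrsf18, chr4:156026072-156026371, plus strand: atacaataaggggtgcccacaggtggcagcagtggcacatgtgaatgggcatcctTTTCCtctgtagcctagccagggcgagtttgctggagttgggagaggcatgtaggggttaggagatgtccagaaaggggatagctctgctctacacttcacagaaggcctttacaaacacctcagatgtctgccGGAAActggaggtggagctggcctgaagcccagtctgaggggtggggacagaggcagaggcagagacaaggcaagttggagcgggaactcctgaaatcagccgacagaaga
Cd27, chr6:125236978-125237277, minus strand: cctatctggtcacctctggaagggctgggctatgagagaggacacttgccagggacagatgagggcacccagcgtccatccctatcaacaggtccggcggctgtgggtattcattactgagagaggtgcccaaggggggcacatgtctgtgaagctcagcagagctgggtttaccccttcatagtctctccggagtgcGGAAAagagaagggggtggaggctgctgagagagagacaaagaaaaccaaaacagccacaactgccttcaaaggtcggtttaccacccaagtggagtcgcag

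The second Tnfrsf9 window, 7544 bases downstream of the first, holds 2 overlapping kappaB matches 43 and 42 bases before the annotated start and 1 AP-1 match, TGAGTCA, 15 bases before it. The kappaB consensus is found in 8.46% and the AP-1 letters in 7.81% of all 32851 windows. Neither occurs in the first Tnfrsf9 window or in those of Tnfrsf4, Tnfrsf18 and Cd27. NFAT letters, which 61.3% of all windows hold, occur in each of the 5 windows. They overlap the kappaB matches once, in the second Tnfrsf9 window. T-box letters, held by 3.98% of all windows, occur in none of the 5. The hypoxia cores occur in neither Tnfrsf9 window. ACGTG, held by 19.6% of windows, matches the Tnfrsf4 window 3 times, since CACGTG reads alike on both strands, and GCGTG, held by 32.4%, matches none of the 5. The Tnfrsf18 window lies 12327 bases downstream of the Tnfrsf4 window on the same strand of chromosome 4.

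Before the results, the tumours themselves need a word. The mean of 15 melanocyte markers lay between 9.07 and 10.12 on the log2 scale in 85 tumours and below 9 in the other 5. These are study 2 non-responder replicate 14, study 3 responder replicates 3 and 4, and study 3 stabilization replicates 1 and 2. Replicate 14 of the study 2 non-responders had a B cell marker mean of 9.45 and a lymph node stroma mean of 9.29, where the 85 others had medians of 5.27 and 5.35. Study 3 responder replicate 3 was alike, at 9.82 and 9.58. Study 3 responder replicate 4 and stabilization replicate 2 had skeletal muscle means of 13.66 and 11.84, against a median of 5.37 and a highest value of 12.42 in the 85, and stabilization replicate 1 had a fibroblast mean of 11.90 against a median of 8.93. Results that rest on these tumours are given with and without them. The titles give each tumour a number in brackets that the labels do not explain. In both studies these numbers form separate ranges for the PBS, the IgG and the treated tumours, so in every comparison with IgG or PBS the treatment and whatever the ranges stand for cannot be told apart.

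The first comparison set tumours that regressed under anti-PD-L1 against tumours that grew under it. Cd27, Cd28, Tnfrsf18, Icos and Tnfrsf4 were higher in responders, and Tnfrsf9 had a value of 0.00 ± 0.12 on the log2 scale (SE; 17 and 10 responders, 14 and 9 non-responders). So 5 of 6 members passed limma's test at an adjusted p under 0.05, all of them upward, where 51.2% of all 18194 genes passed in either direction and 18.9% passed upward. The median of the 6 differences was 0.77, beside -0.06 over all genes tested. Of the 9319 genes that passed 3434 were higher and 5885 lower, and none of the 5 members that passed was lower.

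Cd27, the receptor for Cd70, had the largest difference of the 6 in the average over studies, with the chosen probe sets. In study 3 alone Cd28 had a larger value (1.66 against 1.56), and another probe set of Cd28 gave 1.43 in the average. In study 2 responders the log2 value of Cd27 ran from 3.90 over a median of 5.16 to 6.42, and in non-responders from 3.12 over 4.09 to 8.13. In study 3 responders it ran from 4.31 over 5.17 to 7.86, and in non-responders from 3.48 over 3.95 to 4.63. In study 3, 9 of 10 responders lay above every non-responder. In study 2 no responder exceeded non-responder replicate 14, and 11 of 17 exceeded all others. Averaged over studies Cd27 was higher by 1.20 ± 0.24, 2.30-fold (limma, adjusted p = 0.000143).

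Tnfrsf18, the receptor for Tnfsf18, stood at 5.19, 6.41 and 7.25 (lowest, median, highest) in study 2 responders and at 5.31, 5.86 and 8.65 in non-responders. In study 3 the same values were 6.51, 7.33 and 8.48 against 5.35, 6.18 and 6.72. The study 3 groups overlapped by 1 responder, the other 9 lying above all non-responders, and in study 2, 8 of 17 responders lay above all non-responders but replicate 14. The difference was 0.82 ± 0.17, 1.76-fold (limma, adjusted p = 0.000178).

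Tnfrsf4, the receptor for Tnfsf4, moved over a smaller range. Study 2 responders had 6.97, 7.48 and 8.20 and non-responders 7.02, 7.08 and 8.71, and study 3 responders had 7.30, 7.76 and 8.74 against 7.14, 7.30 and 7.68. Of the study 3 responders 6 of 10 lay above every non-responder, while in study 2 only 2 of 17 lay above all non-responders but replicate 14. Tnfrsf4 was higher by 0.38 ± 0.09, 1.30-fold (limma, adjusted p = 0.00127).

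Tnfrsf9, the receptor for Tnfsf9, stood between 7.61 and 9.64 over all tumours. Its values were 7.97, 8.47 and 9.57 in study 2 responders and 8.04, 8.36 and 9.02 in non-responders. In study 3 they were 8.13, 8.64 and 9.04 against 8.34, 8.72 and 9.03. The groups overlapped almost entirely, with 2 of 17 and 1 of 10 responders above the highest non-responder. The interval of the difference reached from -0.24 to 0.24 (95%; limma, adjusted p = 0.990), so a difference of up to 1.18-fold either way lies inside it. The other 5 intervals began at 0.19 or more.

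Among the immunoglobulin superfamily members, Cd28 ran from 4.86 over 5.71 to 7.22 in study 2 responders and from 4.53 over 5.10 to 10.12 in non-responders. In study 3 it ran from 5.25 over 6.41 to 9.74 in responders and from 4.57 over 5.05 to 5.59 in non-responders. The highest value of all 90 tumours belonged to study 2 non-responder replicate 14. Without that tumour 12 of 17 study 2 responders exceeded the rest of the non-responders, and in study 3 it was 9 of 10 responders with all tumours in. Cd28 was higher by 1.08 ± 0.26, 2.12-fold (limma, adjusted p = 0.000873).

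Icos, which is induced on activated T cells, had values of 5.85, 6.61 and 7.60 in study 2 responders and 5.52, 6.23 and 8.98 in non-responders. Study 3 responders had 6.55, 7.02 and 9.37 and non-responders 6.12, 6.23 and 6.81. All 10 study 3 responders lay above the non-responder median and 7 above every non-responder. The difference was 0.71 ± 0.16, 1.64-fold (limma, adjusted p = 0.000484).

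**Figure D1:**
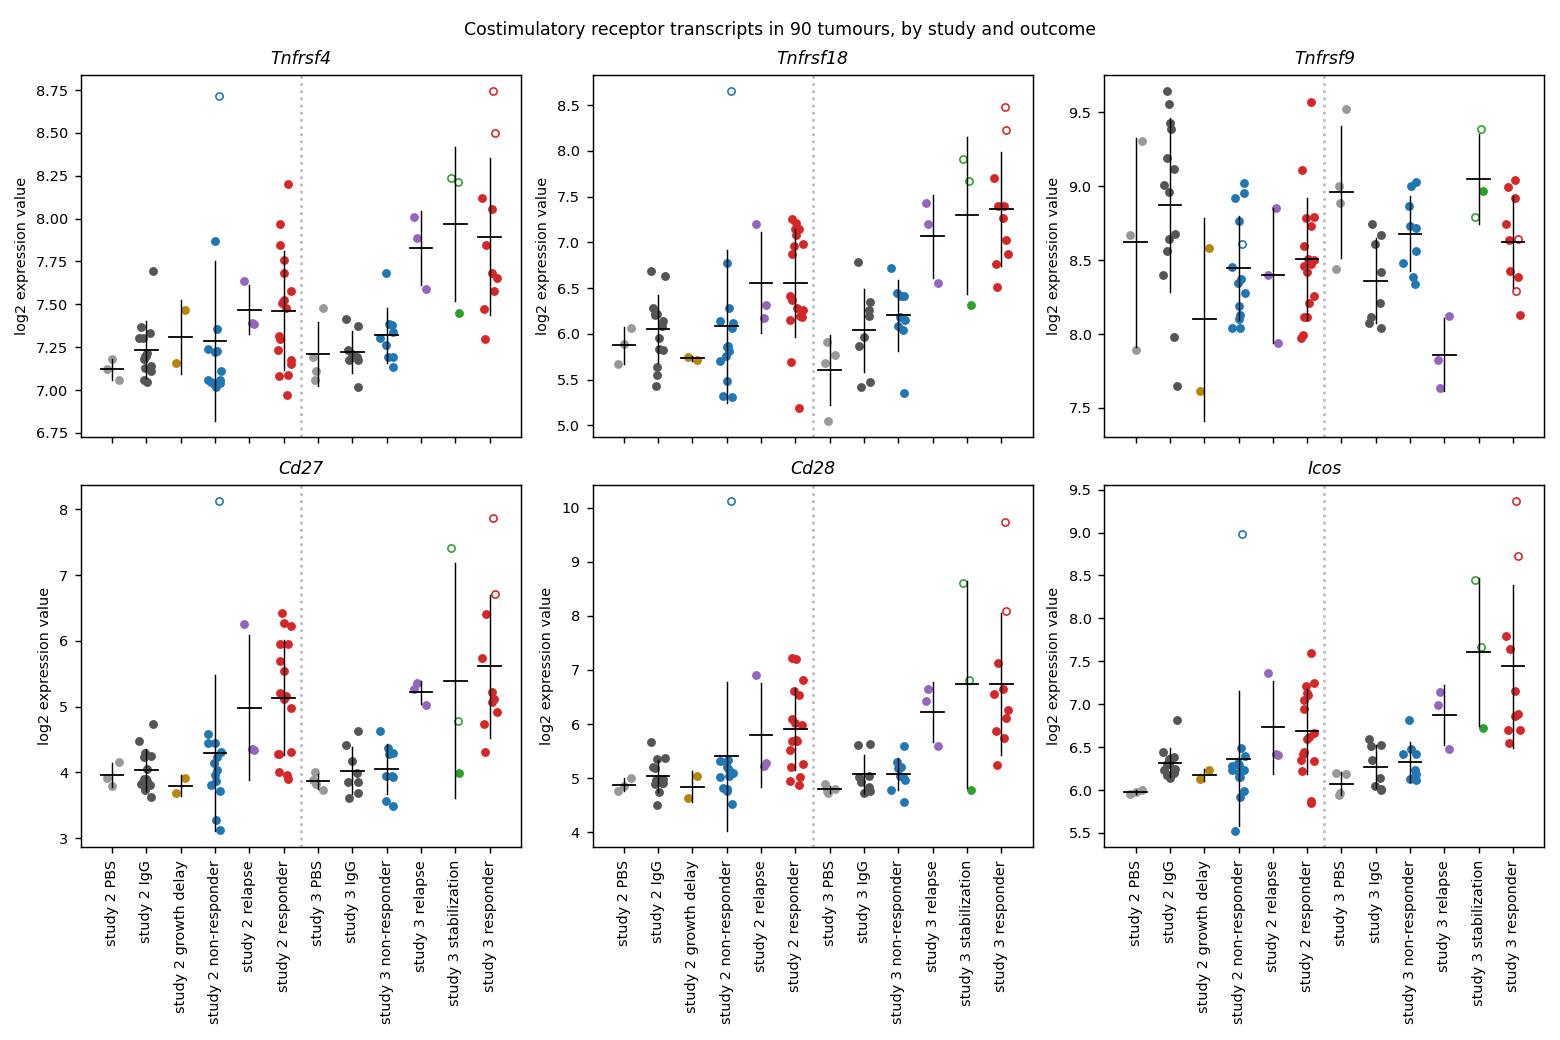
Log2 expression value (vertical axis) of the 6 receptors in each of 90 tumours, by study and outcome group (horizontal axis), with the group mean as a bar and 1 SD as a line; open symbols are the 5 tumours low in melanocyte markers. In every panel but that of Tnfrsf9 the highest responder lies above all IgG and PBS tumours of its study, and the open symbol among the study 2 non-responders is replicate 14, at 10.12 for Cd28.

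T cell markers moved with these receptors. Of 14 T cell markers 11 were higher in responders and 1 was lower, with a median of 0.93. The mean of Cd3d, Cd3e and Cd3g, chains of the T cell receptor complex and called the CD3 mean from here on, ran from 6.14 to 9.32 in study 2 responders and from 5.63 to 10.65 in non-responders. In study 3 it ran from 7.60 to 10.52 against 6.05 to 7.76. Macrophage markers were higher in 8 of 8 cases, fibroblast markers in 6 of 7 with the other lower, NK cell markers in 5 of 7, adipocyte markers in 3 of 6, plasma cell markers in 3 of 7 and B cell markers in 2 of 9. Melanocyte markers were lower in 6 of 15 cases and higher in none. Among all 18194 genes, 3434 (18.9%) passed upward and 5885 passed downward. Keratinocyte markers were lower in 4 of 8 cases and regulatory T cell markers higher in 2 of 6. Of 4 lymph node stroma markers 1 was higher and 1 lower, and 0 of 8 skeletal muscle markers passed. The part of these cell types in the receptor values was not tested. With the CD3 mean as a covariate, the differences of the 6 receptors lay between -0.20 ± 0.16 for Cd28 and 0.07 ± 0.14 for Tnfrsf9. None of them passed (limma, adjusted p between 0.434 and 0.825), while 12 of 18194 genes, 0.066%, did. In pieces of whole tumour, a larger number of T cells and more RNA of a gene per T cell cannot be told apart.

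Leaving out the 5 tumours low in melanocyte markers kept the same 5 receptors past the threshold, with differences of 0.34 for Tnfrsf4, 0.61 for Icos, 0.79 for Tnfrsf18, 0.99 for Cd28 and 1.14 for Cd27 (limma, adjusted p between 1.2e-06 and 0.00021). The share of all genes that passed in this fit is not set beside the count, which is not read as particular to the receptors.

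Within study 2 alone 0 of 6 receptors passed limma's test, where 2.63% of all genes did. Of the 6, Cd27 and Tnfrsf18 had an unadjusted p under 0.05 (0.00524 and 0.0236), as had 4837 of the 18194 genes. Cd27 differed by 0.84 ± 0.29 (adjusted p = 0.0791), Cd28 by 0.50 ± 0.32, Tnfrsf18 by 0.47 ± 0.20, Icos by 0.32 ± 0.20 and Tnfrsf4 by 0.18 ± 0.11. This result rested on 1 tumour: without non-responder replicate 14, 5 of 6 passed, with Cd27 at 1.14 and Cd28 at 0.87, and the share of all genes that passed was 15.8%. Within study 3, 5 of 6 passed, all upward, where 36.7% of all genes passed and 14.4% passed upward. There Cd28 was higher by 1.66 ± 0.40, Cd27 by 1.56 ± 0.37, Tnfrsf18 by 1.16 ± 0.26, Icos by 1.11 ± 0.25 and Tnfrsf4 by 0.58 ± 0.15. Without study 3 responder replicates 3 and 4 these were 1.12, 1.14, 0.92, 0.71 and 0.39. Cd27, Tnfrsf18 and Icos still passed then, with Cd28 at an adjusted p of 0.0570 and Tnfrsf4 at 0.0698 (limma). Without all 5 tumours low in melanocyte markers the 5 receptors passed. The share of all genes is not set beside the counts of these study 3 fits, which are not read as particular to the receptors. The difference between the studies passed for 0 of 6 receptors by limma and for 0% of all genes, 0 in number. Of all genes 2418 had an unadjusted p under 0.05 in that test, Icos (0.0143), Cd28 (0.0262), Tnfrsf4 (0.0336) and Tnfrsf18 (0.0388) among them.

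Against the IgG control, the same 5 receptors were higher in responders. This comparison shares its responder tumours with the previous one, so the values of both are set side by side only. Study 2 IgG tumours had Cd27 values of 3.62, 3.90 and 4.74 (lowest, median, highest) and study 3 IgG tumours 3.61, 3.92 and 4.63. For Cd28 these were 4.50, 4.96 and 5.67, and 4.73, 4.97 and 5.64. In both studies the IgG tumours filled a narrow low range, with 11 of 17 study 2 responders and 9 of 10 study 3 responders above the highest of them for each of these genes. That range lay below the lowest median of any array, 5.71, and the part of low signal in its narrowness was not tested. Cd27 had a 90th percentile of 5.98 over all tumours, under the 6 of the filter on dim genes used as an alternative. Averaged over studies Cd27 was higher by 1.34 ± 0.24 and Cd28 by 1.27 ± 0.26 (SE; 17 and 10 responders, 14 and 8 IgG tumours; limma, adjusted p = 7.15e-05 and 0.000361). Tnfrsf18 was higher by 0.91 ± 0.17, Icos by 0.77 ± 0.16 and Tnfrsf4 by 0.45 ± 0.09. Tnfrsf9 had a value of -0.05 ± 0.12 (limma, adjusted p = 0.755). Without the 5 tumours low in melanocyte markers Cd27 was higher by 1.13 and Cd28 by 0.99, and the same 5 receptors passed. The share of all genes in that fit is not given, and its count is not read as particular to the receptors. With 5 of 6 members past the threshold, all upward, the background was 35.4% of genes in either direction and 15.3% upward.

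IgG values of the other receptors overlapped more with those of responders in study 2. The IgG ranges there were 5.43 to 6.69 for Tnfrsf18, 6.14 to 6.81 for Icos and 7.05 to 7.69 for Tnfrsf4, and 8, 7 and 4 of 17 responders lay above them. Within study 2 only Cd28 and Cd27 passed, by 0.86 ± 0.32 and 1.10 ± 0.29, so 2 of 6 where 27.3% of genes did (limma, adjusted p = 0.0360 and 0.00726). Tnfrsf9 pointed the other way there, at -0.37 ± 0.15, and did not pass (limma, adjusted p = 0.0559). Without the 5 tumours low in melanocyte markers, none of them in these groups, the pooled spread was smaller. Tnfrsf9 was then lower by the same value (limma, adjusted p = 0.0490), and all 6 receptors passed. The share of all genes that passed in that fit is not set beside this count, which is not read as particular to the receptors. Within study 3, 5 of 6 passed, all upward, where 17.4% of genes passed and 9.2% passed upward. The 5 values in study 3 ran from 0.67 ± 0.15 for Tnfrsf4 to 1.67 ± 0.42 for Cd28. Tnfrsf9 had 0.26 ± 0.20 there (limma, adjusted p = 0.360), so its averaged value of -0.05 joins study values of opposite sign, whose difference was not tested. With the CD3 mean as a covariate 0 of 6 receptors passed against IgG by limma, with values from -0.18 for Cd28 to 0.02 for Tnfrsf9, and 0 of all genes passed.

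Averaged over studies, no difference in the receptors was detected between tumours that grew under anti-PD-L1 and IgG tumours. The differences, which rest on the same tumours as above, lay between -0.05 ± 0.13 for Tnfrsf9 and 0.18 ± 0.27 for Cd28. By limma 0 of 6 receptors passed, also at an unadjusted p under 0.05, where 1 gene of all, 0.0055%, passed and 1101 had an unadjusted p under 0.05. The intervals still allowed changes of up to 0.63 for Cd27 and 0.72 for Cd28 (95%). In study 2, 1 of 14 non-responders lay above every IgG tumour for Cd27, Cd28 and Icos, 2 of 14 for Tnfrsf18 and Tnfrsf4, and 0 for Tnfrsf9. In study 3, 3 of 9 did so for Tnfrsf9, 1 of 9 for Tnfrsf4, Icos and Cd27, and 0 for Tnfrsf18 and Cd28. For Tnfrsf9 the average joins means of 8.44 ± 0.35 in non-responders and 8.87 ± 0.59 in IgG tumours of study 2 with 8.68 ± 0.26 and 8.36 ± 0.29 in study 3 (SD; n = 14, 14, 9 and 8), which point in opposite directions and were not tested by study.

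**Figure D2:**
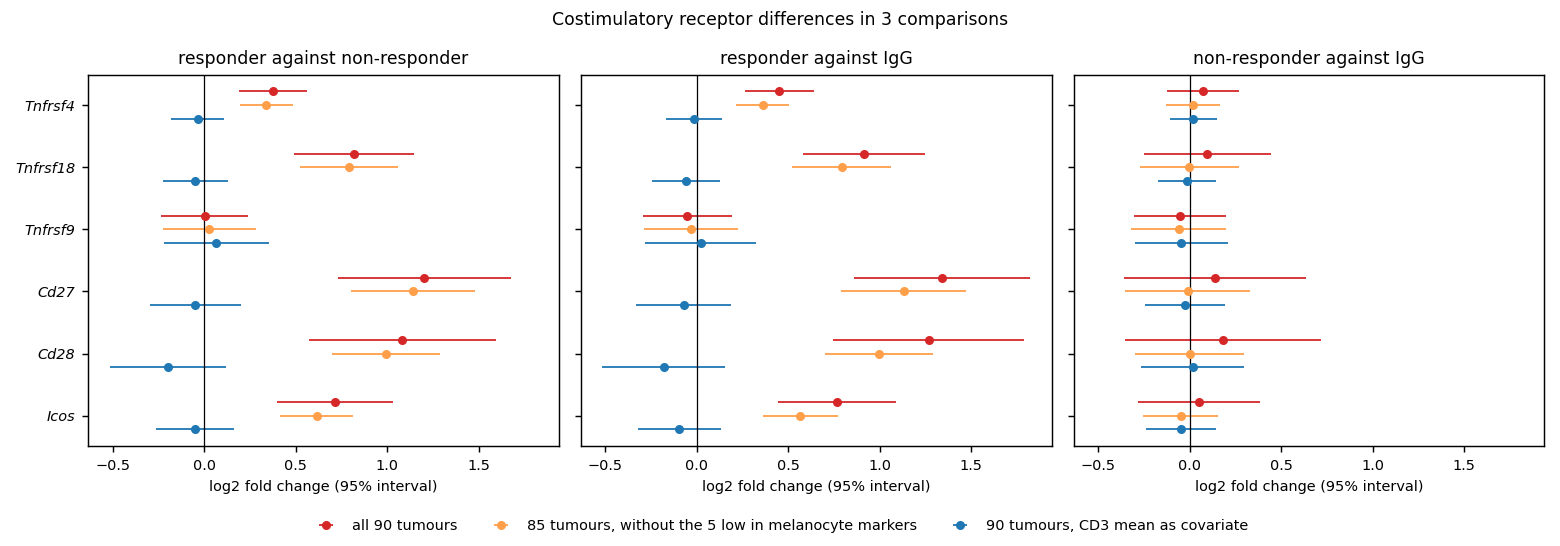
Log2 fold changes (horizontal axis) with 95% intervals for the 6 receptors (vertical axis) in 3 comparisons, from all 90 tumours, from the 85 tumours left without those low in melanocyte markers, and with the CD3 mean as a covariate. All but Tnfrsf9 lie to the right of 0 in both responder comparisons, Cd27 at 1.20 and 1.34, and near 0 with the covariate, while Tnfrsf9 lies near 0 throughout.

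Ordered by their mean over the 12 groups, Cd27, Cd28 and Tnfrsf18 were highest in study 3 responders and Icos and Tnfrsf4 in study 3 stabilization tumours. The group means of Cd28 ran from 4.79 ± 0.07 (SD, n = 4) in study 3 PBS tumours to 6.74 ± 1.32 (n = 10) in study 3 responders, and those of Cd27 from 3.80 ± 0.16 (n = 2) in growth delay tumours to 5.61 ± 1.08 (n = 10). Tnfrsf18 ran from 5.60 ± 0.38 in study 3 PBS tumours to 7.36 ± 0.63 in study 3 responders. Icos ran from 5.98 ± 0.02 in study 2 PBS tumours to 7.61 ± 0.86 in stabilization tumours, and Tnfrsf4 from 7.12 ± 0.06 to 7.97 ± 0.45 in the same groups. For these 5 genes the first 3 places went to the responder, stabilization and relapse tumours of study 3, and places 4 and 5 to the responders and relapse tumours of study 2. Neighbours in the order did not differ beyond their spread, with 1 exception: Tnfrsf4 in study 3 relapse tumours (7.83 ± 0.22) exceeded study 2 relapse tumours (7.47 ± 0.14) by more than the larger SD. Tnfrsf9 had another order, from 9.05 ± 0.31 in stabilization tumours, 8.96 ± 0.44 in study 3 PBS and 8.87 ± 0.59 in study 2 IgG tumours down to 7.86 ± 0.24 in study 3 relapse tumours. Study 3 PBS tumours also stood apart in RNA quality, with a mean 3 prime minus 5 prime difference of the Actb control of 1.94 where the other groups had 0.11 to 0.51, and its part in their receptor values was not tested.

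Averaged over studies, relapse tumours lay between non-responders and responders for the 5 receptors other than Tnfrsf9. Cd27 stood at 6.25, 4.33 and 4.36 in the 3 study 2 tumours and at 5.36, 5.03 and 5.27 in those of study 3. Cd28 stood at 6.90, 5.27 and 5.22, and at 6.65, 5.59 and 6.42. In study 2 a single relapse tumour was high for both genes, and in study 3 all 3 were above every non-responder for Cd27 and 2 of 3 for Cd28. Tnfrsf18 was 7.20, 6.32 and 6.17, then 7.20, 6.56 and 7.43, and was the 1 member of 6 that passed against non-responders, upward, by 0.67 ± 0.26 (limma, adjusted p = 0.0495), where 24% of genes passed and 9.96% passed upward. Cd27 had 0.93 ± 0.37 (adjusted p = 0.0557), Tnfrsf4 0.35 ± 0.15 (0.0659), Tnfrsf9 -0.43 ± 0.19 (0.0746), Cd28 0.77 ± 0.40 (0.130) and Icos 0.45 ± 0.25 (0.148; all limma). Without study 2 non-responder replicate 14, 5 of 6 passed, and leaving out 1 relapse tumour at a time left 0 (study 2 replicates 1 and 3, study 3 replicates 1 and 3) or 1. The share of all genes that passed in these fits is not set beside the counts, which are not read as particular to the receptors. Against IgG 0 of 6 passed by limma, where 1.09% of genes passed, with Cd27 at 1.07 ± 0.38 (adjusted p = 0.0782). All 6 had an unadjusted p under 0.05 there, as had 5851 of the 18194 genes, with Tnfrsf9 lower, at -0.49 ± 0.19, and the other 5 higher. Against responders 0 of 6 passed and 0% of all genes, 0 in number, by limma, with 962 genes at an unadjusted p under 0.05. Tnfrsf9 was the 1 member among those 962, at -0.44 ± 0.19 (unadjusted p = 0.0226, adjusted p = 0.847). Its 3 study 3 relapse values, 7.63, 8.12 and 7.83, all lay below the lowest study 3 responder, 8.13, while the study 2 values of 8.40, 7.94 and 8.85 lay within or just below the responder range. The share of all genes separated in this way, or as Cd27 was from the study 3 non-responders, was not counted.

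Stabilization tumours, of which study 3 had 3, split widely. Cd28 was 6.82, 8.60 and 4.78, Cd27 was 4.78, 7.41 and 3.99, Icos was 7.66, 8.44 and 6.72, Tnfrsf18 was 7.67, 7.91 and 6.32, and Tnfrsf4 was 8.22, 8.24 and 7.45. The first 2 of each set are the tumours low in melanocyte markers, and the third value lay inside the non-responder range for all of them. Against study 3 non-responders 5 of 6 passed, all upward, where 31.3% of genes passed and 13.3% passed upward, with Cd28 at 1.66 ± 0.58 and Icos at 1.28 ± 0.36 (limma, adjusted p = 0.0254 and 0.00684). Against IgG 4 of 6 passed, all upward, where 22.2% and 10.7% did. Cd27 (1.37 ± 0.55, adjusted p = 0.0619) and Tnfrsf9 (0.69 ± 0.28, adjusted p = 0.0639) did not. Without the 5 tumours low in melanocyte markers, or without stabilization replicate 1 or 2 alone, 0 of 6 passed in either comparison by limma. Tnfrsf9 was 9.39, 8.79 and 8.97 in these tumours. Against responders 0 of 6 passed by limma, none at an unadjusted p under 0.05 either, where 0.11% of genes passed.

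The 2 growth delay tumours had Cd28 values of 5.04 and 4.64 and Cd27 values of 3.91 and 3.69, inside the IgG range, and Tnfrsf9 values of 8.58 and 7.61. By limma 0 of 6 receptors passed against study 2 IgG, and 0% of all genes did, 0 in number, with 989 genes at an unadjusted p under 0.05. Tnfrsf9 had the largest value, -0.77 ± 0.31 (unadjusted p = 0.0153, adjusted p = 0.775). IgG against PBS in study 2 gave values between 0.08 ± 0.52 for Cd27 and 0.34 ± 0.35 for Icos. There 0 of 6 passed by limma, also at an unadjusted p under 0.05, where 0.0055% of genes passed. PBS values of Icos in study 2 were 5.97, 6.00 and 5.96 and all lay below the lowest IgG value, 6.14. Icos did not pass there (limma, unadjusted p = 0.327, adjusted p = 0.9998), and the share of all genes separated in this way was not counted.

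Across the 90 tumours 5 of the receptors followed one another. Pearson correlations among Tnfrsf4, Tnfrsf18, Icos, Cd28 and Cd27 lay between 0.834 (Tnfrsf4 with Cd27) and 0.934 (Cd28 with Cd27). Deviations from the group means gave 0.792 to 0.911, and the 85 tumours without those low in melanocyte markers gave 0.743 to 0.904. Correlations of Tnfrsf9 with the other 5 lay between -0.0917 and -0.00096. These values describe tumours that come from 1 table of normalized values and differ in immune cell content, and they carry no test.

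Each of the 5 also followed the CD3 mean, with r of 0.937 for Tnfrsf18, 0.925 for Cd27, 0.897 for Cd28, 0.880 for Icos and 0.833 for Tnfrsf4 over 90 tumours, and 0.749 to 0.911 over the 85. For Tnfrsf9 r was -0.0936. Within groups, a rise of 1 in the CD3 mean went with a rise of 0.89 ± 0.06 in Cd28, 0.87 ± 0.05 in Cd27, 0.60 ± 0.03 in Tnfrsf18, 0.53 ± 0.04 in Icos and 0.29 ± 0.03 in Tnfrsf4, and with -0.04 ± 0.05 in Tnfrsf9 (slope ± SE). Foxp3, the factor that defines regulatory T cells, had r between 0.0183 for Cd27 and 0.178 for Tnfrsf4, and Foxp3 itself differed by -0.04 ± 0.06 between responders and non-responders. The mean of 6 regulatory T cell markers, Foxp3 among them, had r of 0.762 to 0.847 with the 5 receptors. Cd8a followed the 5 with r of 0.822 to 0.94 and Cd4 with r of 0.696 to 0.833. Over the 85 tumours r was 0.721 to 0.921 for Cd8a and lower, 0.457 to 0.630, for Cd4.

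**Figure D3:**
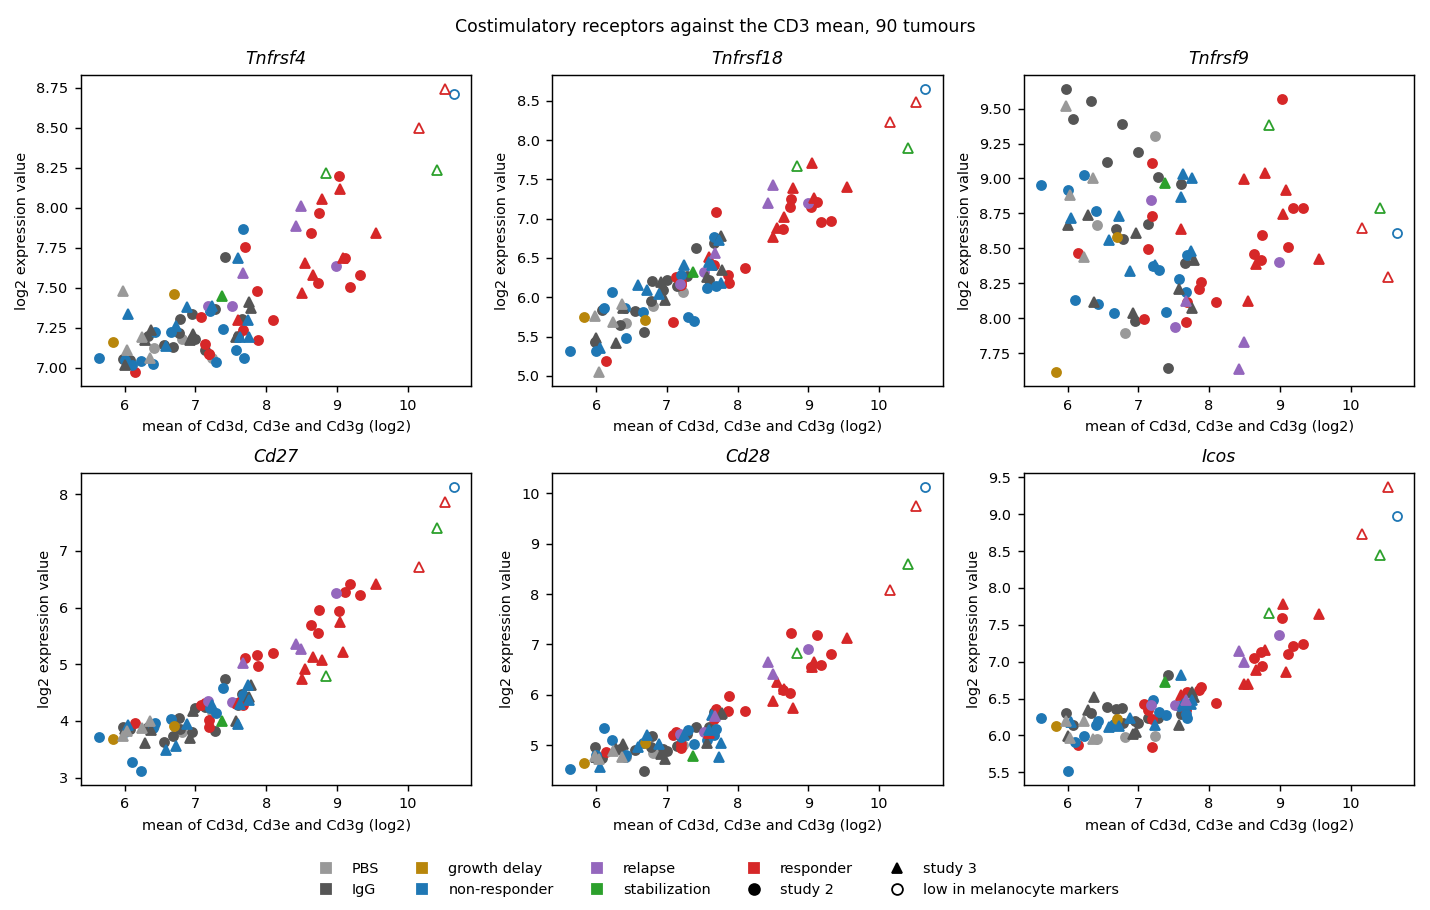
Log2 value of each receptor (vertical axis) against the CD3 mean, the mean log2 value of Cd3d, Cd3e and Cd3g (horizontal axis), in 90 tumours coloured by outcome; circles are study 2, triangles study 3 and open symbols the 5 tumours low in melanocyte markers. All but Tnfrsf9 climb with the CD3 mean (r from 0.833 to 0.937), and Tnfrsf9 does not (r of -0.0936).

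The 5 genes most like each receptor over the 90 tumours were picked by Pearson correlation. For Cd28 they were Cd247, the zeta chain of the T cell receptor complex (0.955), Parvg (0.950), Tbc1d10c (0.948), Gimap1 (0.946) and Lat, the adaptor that links the receptor to its signal (0.946). For Cd27 they were the T cell receptor segment Trav9d-3 (0.9535), Cd5 (0.951), Cd247 (0.947), Tbc1d10c (0.946) and Cd8b1 (0.945). Icos had Bcl11b, a T cell transcription factor (0.937), Lat (0.936), the chemokine receptor Cxcr3 (0.936), Cd247 (0.935) and Cd28 (0.929). Tnfrsf18 had Gimap4 (0.941), Cd2 (0.935), Ipcef1 (0.933), Il18r1, a chain of the interleukin 18 receptor (0.933), and Ltb (0.932). Tnfrsf4 had Traf1, a TRAF adaptor (0.910), Icos (0.908), Lat (0.902), Bcl11b (0.902) and Cxcr3 (0.901).

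Tnfrsf9 had other neighbours. Its 5 were Bnip3 (0.839), which acts in mitochondrial turnover, Pgf, a placental growth factor (0.807), Egln3, an oxygen-sensing prolyl hydroxylase (0.775), Adm, the vessel-dilating peptide adrenomedullin (0.769), and Kdelr3 (0.765), a receptor that returns proteins to the endoplasmic reticulum. Bnip3, Egln3 and Adm are known to rise under low oxygen. Deviations from the group means gave 0.836 for Bnip3, study 2 gave 0.837, study 3 gave 0.866, and the 85 tumours 0.848. For Cd28 the correlation with Bnip3 was -0.218. A list of 14 hypoxia response genes that includes Bnip3, Egln3 and Adm, written after these values had been seen, had r with Tnfrsf9 above 0.5 in 8 cases and below 0 in 1, Hk2, with a median of 0.573. In responders against non-responders 4 of the 14 were higher and 1 was lower, where 51.2% of all genes passed and 18.9% passed upward.

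**Figure D4:**
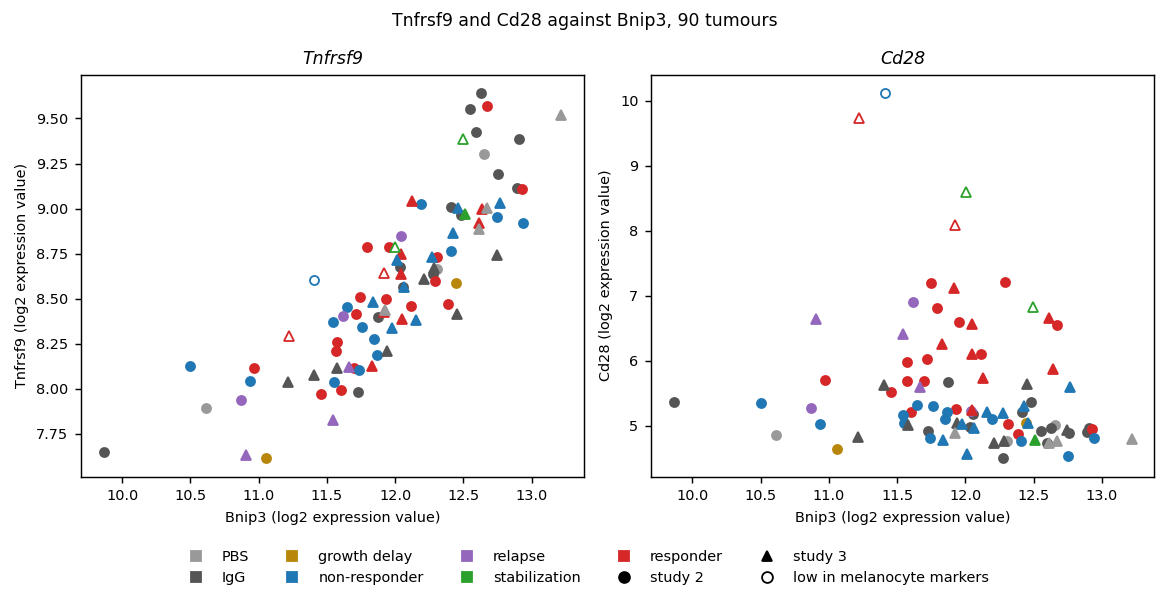
Log2 value of Tnfrsf9 and of Cd28 (vertical axes) against that of Bnip3 (horizontal axes) in 90 tumours coloured by outcome; circles are study 2, triangles study 3 and open symbols the 5 tumours low in melanocyte markers. Tnfrsf9 climbs with Bnip3 in all outcome groups together (r of 0.839), and Cd28 does not (r of -0.218).

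Other probe sets of the same genes were tested as well. Tnfrsf9 has 3, which differed between responders and non-responders by 0.00 ± 0.12, 0.00 ± 0.16 and -0.12 ± 0.05 (limma over 34958 probe sets, adjusted p = 0.990, 0.992 and 0.0594), with r to Bnip3 of 0.839, 0.6865 and 0.3445 and r to the CD3 mean of -0.0936, -0.06935 and -0.271. The last of them was dim, with a mean of 4.52 and a range of 4.03 to 4.90, below the lowest array median of 5.71. The 3 probe sets of Icos rose by 0.71 ± 0.16, 1.14 ± 0.21 and 0.72 ± 0.19, and the 2 of Cd28 by 1.08 ± 0.26 and 1.43 ± 0.29. Tnfrsf4, Tnfrsf18 and Cd27 have 1 each.

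The ligands of these receptors are carried mainly by antigen-presenting cells. Of 7 ligand genes 6 were measured, and Tnfsf18 was not analysed here. In responders against non-responders 1 was higher, 1 lower and 4 did not pass, with a median of 0.02 beside -0.06 over all genes, of which 51.2% passed. Cd86, a ligand of Cd28, was higher by 1.003 ± 0.21, and its other ligand Cd80 had 0.02 ± 0.06. Cd70, the ligand of Cd27, was lower, at -0.15 ± 0.06 (limma, adjusted p = 0.0300). Its mean over all arrays was low, at 4.14, below the lowest array median of 5.71, as were those of Cd80 (4.78) and Tnfsf4 (5.03). The part of low signal in the values of these genes was not tested. Cd70 passed in neither study alone (limma, adjusted p = 0.0851 in study 2 and 0.411 in study 3). Icosl had 0.22 ± 0.10 (limma, adjusted p = 0.0554), Tnfsf9 0.02 ± 0.05 and Tnfsf4 -0.04 ± 0.05. Against IgG Cd86 (0.95 ± 0.21) and Icosl (0.26 ± 0.10) were higher and none was lower, where 35.4% of all genes passed.

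Of 23 genes that carry the signal of these receptors 18 are described, and the others were not analysed here. In responders against non-responders 9 were higher, 1 lower and 8 did not pass, with a median of 0.28, where 51.2% of all genes passed and 18.9% passed upward. The adaptor Lcp2 was higher by 1.09 ± 0.20, the exchange factor Vav1 by 0.95 ± 0.21, the NF-kB activator Malt1 by 0.89 ± 0.18 and Traf1 by 0.82 ± 0.17. Smaller rises were found for Pik3r1, a subunit of phosphoinositide 3-kinase (0.58 ± 0.13), the ubiquitin ligases Birc3 (0.49 ± 0.11) and Birc2 (0.31 ± 0.11), Nfkb2 (0.39 ± 0.11) and Traf5 (0.34 ± 0.13). Bcl10 was lower, at -0.17 ± 0.05, Traf2 had 0.03 ± 0.04, Map3k14 -0.08 ± 0.04 and Prkcq -0.04 ± 0.10. Many of these genes are also expressed by myeloid cells, whose markers moved in the same direction, and the part of either cell type was not tested.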

How the data were processed

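RNA of 90 tumours was amplified, labelled and hybridised to 1-colour Affymetrix arrays. The deposited values are log2 values that the authors made with RMA, per the submitters' processing notes, which also name limma; no version of either is given. The values of all arrays were used as deposited, with no depth to set a precision; the number of arrays limits it. Each of 18194 genes was read from its single-symbol probe set with the highest mean. A model with 1 mean per study and outcome group was fitted in limma 3.58.1 (R 4.3.3), 2-sided, with Benjamini-Hochberg adjustment over all genes and a threshold of 0.05; comparisons that span both studies weight them equally. No 2 arrays held identical values. Where the labels do not say that samples of a group are separate animals, p-values measure only the spread between these samples, which may be technical. Alternatives changed the normalization, probe set rule, filter, covariates, weights and tumours used. The test was checked on simulated data. The members and lists were chosen with earlier results of these data known. Named genes are the members, both pathway lists and, per member, the 5 genes with the highest Pearson correlation. Hypoxia genes and their cores were chosen after values were seen.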

Additional observations from a re-analysis of the deposited data

Results flagged for a closer look

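Dixon's test was run 24 times, for each of the 6 receptors in each group of 4 to 10 tumours, all in study 3. In 2 of these tests a tumour lay far from the others. Chance gives about 1 in 20 per test, but the tests share tumours and 5 of the receptors are correlated, so they are not independent. Tnfrsf4 in study 3 non-responder replicate 3 was 7.68, above the next at 7.39, in a group that began at 7.14. Tnfrsf18 in study 3 non-responder replicate 9 was 5.35, below the next at 6.04, in a group that reached 6.72.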

How the results depend on the processing

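Of the alternatives, 175 counts of receptors past the threshold stayed within 1.5 times the value reported, and 179 single values for responders against non-responders and for both against IgG kept their side of the threshold, though values near 0 changed sign in some, as for Tnfrsf9 in responders against non-responders (-0.0703 to 0.0719). With the CD3 mean as a covariate the sign turned in 10 values that had passed, none of which passed then: against non-responders Tnfrsf4 had -0.0357, Tnfrsf18 -0.0477, Icos -0.0504, Cd28 -0.199 and Cd27 -0.0490, and against IgG they had -0.0151, -0.0623, -0.0967, -0.181 and -0.0731 in the same order. That covariate also took the counts to 0 for responders against non-responders and against IgG, averaged and in study 3, for responders against IgG in study 2, for relapse against non-responders and for both stabilization comparisons with controls or non-responders. For responders against non-responders in study 2 the count rose from 0 to 5 without the tumours low in melanocyte markers, without non-responder replicate 14 and with array weights. In study 3 it fell from 5 to 3 with 3 prime to 5 prime covariates and without responder replicates 3 and 4, an alternative chosen after seeing the data. For responders against IgG in study 2 the count of 2 became 1 with the filter on dim genes, which removed Cd27, 1 at a threshold of 0.01, 4 in a fit of the compared groups alone, and 6 with array weights or without the low tumours. For relapse against non-responders the count of 1 became 0 with the mean of all probe sets, the filter on dim genes, the 3 prime to 5 prime covariates or a threshold of 0.01, 5 without the low tumours or without study 2 non-responder replicate 14, and 6 with array weights; leaving out 1 tumour at a time gave 0 to 5. For relapse against IgG the count of 0 became 5 without the low tumours or with only the compared groups, and 6 with array weights. For stabilization against non-responders the count of 5 became 0 without the low tumours, 3 with the 3 prime to 5 prime covariates and 1 at a threshold of 0.01, with a range of 0 to 5 when 1 tumour was left out. For stabilization against IgG the count of 4 became 0 without the low tumours and 2 at a threshold of 0.01, with the same range of 0 to 5. Stabilization against responders went from 0 to 5 with array weights. The cause was not tested, apart from fewer genes or tumours where a filter or an omission removed them. The share of all genes past the threshold can also change with the setting, as it did in study 2 without non-responder replicate 14. It is not set beside each count of an alternative, here or above, so no such count is read as particular to the receptors. The array weights had not fully converged. Median centring and quantile normalization moved the median of all genes by -0.0014 and -0.013. No paired analysis was possible because the replicate numbers follow accession order and pair no tumours.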

Other observations

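Bnip3, the gene most like Tnfrsf9, had group means from 11.37 ± 0.41 (SD, n = 3) in study 3 relapse tumours to 12.61 ± 0.53 (SD, n = 4) in study 3 PBS tumours. The mean of the hypoxia response list had r of 0.758 with Tnfrsf9 over the 90 tumours, and between -0.143 and -0.0596 with the other 5 receptors. That list was written after the Tnfrsf9 correlations had been seen. It includes Bnip3, Egln3 and Adm, picked above as most like Tnfrsf9, so the high r follows in part from the choice of genes and is no separate evidence. Among the 5 tumours low in melanocyte markers the mean of the hypoxia response list was 8.90 in study 3 responder replicate 3 and 10.86 in stabilization replicate 1, where Tnfrsf9 was 8.29 and 9.39.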
